A study of Mus musculus with 6 samples.

Results

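The 8 genes described here encode proteins of the ciliary transition zone: Rpgrip1l, Nphp4, Cep290, Mks1, Cc2d2a, Tctn1, Tctn2 and Tctn3. They were chosen by symbol from the 34591 gene rows of each count table, and all 8 were found and passed the filter on low counts. Gene counts came from 6 RNA-seq libraries of mouse WNT medulloblastoma, a hindbrain tumour in which the WNT pathway is active. Of these, 3 are labelled as the control model and 3 as the sh2-Ift88 model (shIft88 below), in which a short hairpin RNA was directed at Ift88, a subunit of the transport complex that builds cilia. Both groups are thus WNT tumours. The labels give no strain, age, sex, promoter, vector or host, and whether each library is a separate animal is not stated, so p-values measure the spread among these samples and that spread may be technical.

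The transition zone is the short stretch at the base of the cilium where links run from the microtubule doublets to the membrane and form a gate for proteins that enter and leave. It is built from a nephronophthisis module, to which Nphp4 and Rpgrip1l belong, and a Meckel syndrome module, to which Mks1, Cc2d2a and the tectonic genes Tctn1, Tctn2 and Tctn3 belong, while Cep290 lies in the links between them. Mutations in these genes cause ciliopathies such as Joubert and Meckel syndromes, and loss of several of them in mice disturbs Hedgehog signalling, which passes through the cilium in the developing cerebellum.

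Many genes for ciliary proteins are known targets of RFX transcription factors, which bind an inverted repeat called the X-box. To show where such letters lie in these genes, the windows from 250 bases before to 50 bases after the annotated start are given for the 5 members that hold the core GTTGCC and for Rpgrip1l, the member with the smallest p in the comparison below. The sequences are from RefSeq on build GRCm38.p6 and were matched by symbol; the counts were made on mm9, and no coordinate was used to join these sources. Each runs 5′ to 3′ in the direction of the gene, and capitals mark the core on either strand or an inverted repeat of the form GTTNCCNGGNAAC, GTTNCCNNGGNAAC or GTTNCCNNNGGNAAC. The core motif overlaps the repeat where both are present.
Tctn1, chr5:122264411-122264710, minus strand: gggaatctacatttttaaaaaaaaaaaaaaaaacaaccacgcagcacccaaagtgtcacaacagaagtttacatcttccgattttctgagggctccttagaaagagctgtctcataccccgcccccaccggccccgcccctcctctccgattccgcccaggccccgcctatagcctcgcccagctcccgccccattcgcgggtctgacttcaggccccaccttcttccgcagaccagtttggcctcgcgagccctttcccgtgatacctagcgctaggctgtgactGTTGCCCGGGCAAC
Tctn2, chr5:124598499-124598798, plus strand: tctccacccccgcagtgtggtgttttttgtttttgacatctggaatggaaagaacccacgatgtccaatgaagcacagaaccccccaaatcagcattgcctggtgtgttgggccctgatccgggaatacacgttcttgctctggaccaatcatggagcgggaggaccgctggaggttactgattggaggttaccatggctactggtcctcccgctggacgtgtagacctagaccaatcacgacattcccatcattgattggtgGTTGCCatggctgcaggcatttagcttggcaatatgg
Tctn3, chr19:40612182-40612481, minus strand: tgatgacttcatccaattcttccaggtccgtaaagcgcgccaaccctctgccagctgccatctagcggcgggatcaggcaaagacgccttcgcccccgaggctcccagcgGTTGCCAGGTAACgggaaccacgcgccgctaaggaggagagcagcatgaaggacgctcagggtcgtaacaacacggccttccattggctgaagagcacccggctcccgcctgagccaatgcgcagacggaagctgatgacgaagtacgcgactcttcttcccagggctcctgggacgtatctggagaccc
Mks1, chr11:87852965-87853264, plus strand: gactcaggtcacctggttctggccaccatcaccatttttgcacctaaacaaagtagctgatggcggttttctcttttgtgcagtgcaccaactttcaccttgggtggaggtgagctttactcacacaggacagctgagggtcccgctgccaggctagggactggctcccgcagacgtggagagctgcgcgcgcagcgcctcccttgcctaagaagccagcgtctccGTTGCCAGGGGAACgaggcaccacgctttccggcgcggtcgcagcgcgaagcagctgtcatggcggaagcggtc
Nphp4, chr4:152477892-152478191, plus strand: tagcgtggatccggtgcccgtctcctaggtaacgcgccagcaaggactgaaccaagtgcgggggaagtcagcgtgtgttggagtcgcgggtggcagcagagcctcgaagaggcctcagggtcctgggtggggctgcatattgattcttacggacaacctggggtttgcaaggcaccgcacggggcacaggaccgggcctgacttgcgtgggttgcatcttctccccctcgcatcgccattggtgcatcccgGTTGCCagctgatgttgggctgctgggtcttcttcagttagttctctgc
Rpgrip1l, chr8:91313173-91313472, minus strand: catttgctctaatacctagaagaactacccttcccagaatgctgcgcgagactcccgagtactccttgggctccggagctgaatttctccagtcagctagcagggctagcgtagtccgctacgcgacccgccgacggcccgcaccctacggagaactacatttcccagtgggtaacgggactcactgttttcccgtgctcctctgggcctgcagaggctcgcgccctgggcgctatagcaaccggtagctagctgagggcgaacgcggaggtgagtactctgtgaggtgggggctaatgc
The inverted repeat was present in Mks1, from 24 bases before the start, in Tctn3, from 140 bases before the start, and in Tctn1, from base 37 of the transcript. Tctn2 and the most downstream of 3 annotated starts of Nphp4 held the core alone. Neither form was found in the windows of Rpgrip1l, Cep290 and Cc2d2a. Of 32851 windows of the same length in the table, 12.5% held the core and 0.776% the repeat; counted by gene, so that every start of a gene is searched, 14.1% and 0.903% of 27025 genes did. Of the related lists described below, the core was held by 6 of 10 matched genes of the other Meckel syndrome module genes, 0 of 6 of the nephronophthisis and inversin modules, 2 of 12 of the basal body, 6 of 14 of intraflagellar transport complex B and 3 of 8 of the BBSome. The repeat was held by 1, 0, 0, 2 and 1 of them, in the same order. Because the motifs were picked with the promoters of the 8 members in view, the members' matches are no test against these shares. These matches describe letters in a window and not bound sites.

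The targeted transcript was examined first. Ift88 had counts of 455, 607 and 553 in control 1, 2 and 3 and of 519, 477 and 231 in shIft88 1, 2 and 3. Scaled for library size with TMM factors, its values in counts-per-million units (CPM) were 13.8, 19.7 and 13.7 for the controls and 14.7, 16.03 and 14.4 for the shIft88-labelled libraries. The groups overlapped, and the shIft88 level had a 95% confidence interval of 61.3% to 149% of control. The log2 fold change was -0.064 with TMM factors and -0.36 with library totals alone, where the median of all genes tested was -0.33. With TMM factors a lower Ift88 level was not found in the shIft88-labelled libraries, so the targeted transcript does not bear the label out. The names shIft88 1, 2 and 3 below give libraries by their label only.

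Depth and composition differed between the libraries. Gene counts summed to between 26802618 and 33772559, and the 8 transition zone genes together took 2479 to 4824 of them, 0.00925% to 0.0172%. The shIft88-labelled library 3 stood apart, with a TMM factor of 0.598 against 1.05 to 1.24 in the others and 10.2% unaligned reads against 2.93% to 3.96%. Control 2, shIft88 2 and shIft88 3 carried reads of 387 to 564 of 1249 olfactory receptor genes, which should be silent, against 24 to 38 in the other libraries. The 9 WNT medulloblastoma markers summed to 3115 to 5856 CPM in the controls and 3839 to 4955 CPM in the shIft88-labelled libraries. Among them, the WNT target genes Axin2 and Lef1 were present in every library, at 320 to 764 CPM and 69.0 to 107 CPM. Others on the list varied more: Sp5 ran from 2.69 CPM in control 3 to 142 CPM in control 1. Dkk2 ran from 1.98 CPM in shIft88 1 to 87.9 CPM in control 3, and Dkk4, another WNT target, was at 0 to 0.687 CPM. The summed level of 12 neuron markers was 19.2, 168 and 458 CPM in the controls and 211, 167 and 18.05 CPM in the shIft88-labelled libraries. Ependymal cells carry many motile cilia, each with a transition zone, and the summed level of 11 measured markers of ependyma and multiciliated cells was 0.878 to 5.95 CPM in the controls and 3.69 to 7.98 CPM in the shIft88-labelled libraries. Markers of choroid plexus, an epithelium with cilia, summed to 32.0 to 453 CPM in the control group and 267 to 1729 CPM in the shIft88 group, and 10 proliferation genes to 932 to 1670 CPM and 451 to 1391 CPM. Each of the 8 transition zone genes was at 4.33 CPM or more in every library, and the multiciliated cell regulator Foxj1 at no more than 2.89 CPM. The part of any of these cell types in the results below was not tested, and in bulk tumour RNA fewer cells of a type and less RNA per cell cannot be told apart.

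Between the groups, none of the 8 transition zone genes passed the threshold of an adjusted p of 0.05 (edgeR's quasi-likelihood test with Benjamini-Hochberg adjustment over 16768 genes), against 0% of all genes tested. DESeq2, which called 58 of all genes tested, and limma-voom, which called 0, likewise called 0 of the 8. With edgeR 1 of the 8, Rpgrip1l, had an unadjusted p under 0.05, a level that 3.23% of all genes tested reached. The groups did not overlap for 1 of the 8, again Rpgrip1l, which was higher in the shIft88-labelled libraries, as were 4.70% of all genes tested; 3.69% were lower without overlap, 8.39% in both directions together. The fitted value was above 0 for 5 members and below 0 for 3, with a median log2 fold change of 0.13 against -0.012 over all genes tested. That split followed the scaling and single libraries: with library totals alone 2 members were above 0 and 6 below, the median of all genes then being -0.33, and leaving out 1 library gave between 3 above 0 (without control 3 or without shIft88 2) and 7 (without control 2).

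**Figure D1:**
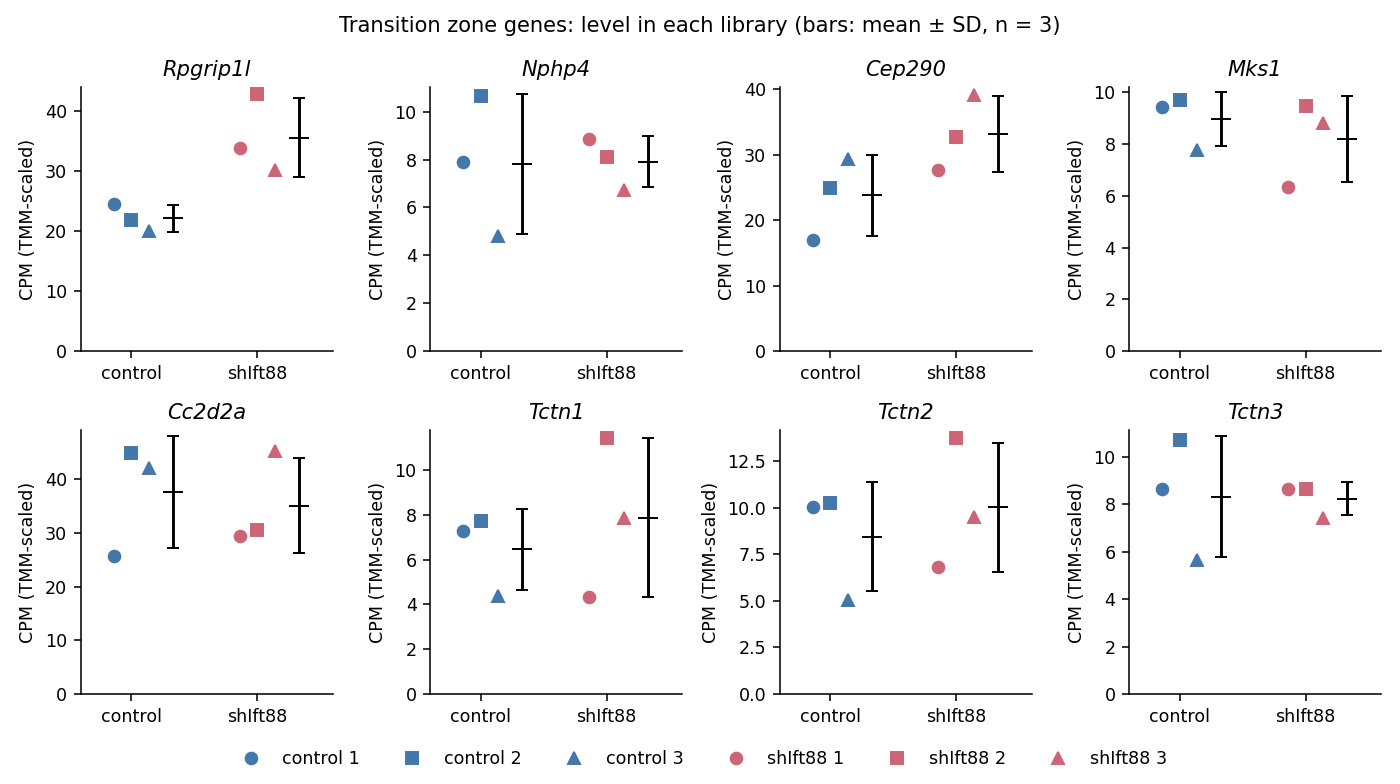
Level of each transition zone gene in counts-per-million units (CPM, TMM-scaled, linear axis from 0) in the 3 control and the 3 shIft88 libraries, each point being 1 library and each bar the mean ± SD (n = 3). With this scaling, Rpgrip1l is the 1 member for which the shIft88-labelled libraries, at 30.1 to 42.8 CPM, all lie above the controls, at 20.05 to 24.5 CPM.

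Among the genes of the nephronophthisis module, Rpgrip1l, a scaffold that brings other proteins to the transition zone, stood at 24.5, 21.9 and 20.05 CPM in controls 1 to 3 and 33.8, 42.8 and 30.1 CPM in shIft88 1 to 3. Every shIft88-labelled library was thus above every control. The means were 22.2 ± 2.24 and 35.6 ± 6.54 CPM (SD, n = 3 each), or 0.68 on the log2 scale (SE 0.24, edgeR's quasi-likelihood test, adjusted p = 0.9995). Its 95% interval spanned 109% to 237% of control, before any adjustment for the number of genes, and 1.38% of genes tested had a p as small or smaller. The separation depended on the scaling: by library totals alone shIft88 3 was at 17.98 CPM, below the controls at 26.1, 24.2 and 24.8 CPM, and the log2 fold change was 0.42 (adjusted p = 0.921). It was 0.72 among the 3 libraries with olfactory receptor reads, 0.57 among the 3 without, and 0.66 with a term for that split. The first 2 of these have 1 library in a group, assumed to vary like the others, and none of the 3 passed. The unadjusted p was above 0.05 under these alternatives: with library totals alone, without a filter on low counts, with that term, within each of the 2 sets of libraries, without control 2, without control 3 and without shIft88 2.

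Nphp4, which encodes nephrocystin-4, stood at 7.90, 10.7 and 4.82 CPM in controls 1 to 3 and 8.86, 8.10 and 6.75 CPM in shIft88 1 to 3. Control 2 was the highest and control 3 the lowest of all 6, so the shIft88-labelled libraries lay between the controls. With library totals alone shIft88 3 was the lowest, at 4.03 CPM. The fitted difference was 0.020 (log2, SE 0.40), and the interval of 52.6% to 195% of the control level leaves room for a change of almost that size in either direction. Cep290, a large coiled-coil protein of the links between microtubules and membrane, stood at 17.02, 24.9 and 29.4 CPM in controls 1 to 3 and 27.6, 32.7 and 39.2 CPM in shIft88 1 to 3. The groups overlapped through control 3 alone, which lay above shIft88 1. Cep290 differed by 0.48 (log2, SE 0.28, edgeR, adjusted p = 0.9995), with an interval of 87.9% to 221% of control. It was 0.10 with library totals alone, 0.29 without control 1 and 0.31 without shIft88 3. With TMM factors the libraries with the lowest and the highest Cep290, control 1 and shIft88 3, were the pair with the lowest neuron markers. With library totals alone control 3, which had the highest neuron markers, was the highest for Cep290, at 36.3 CPM. Control 1 was then still the lowest, at 18.1 CPM, and shIft88 3 was at 23.4 CPM. Control 1 and shIft88 3 also had the lowest summed markers of astrocytes (71.0 and 58.3 CPM) and oligodendrocytes (21.7 and 23.2 CPM). They were also the lowest for microglia and macrophages (64.1 and 18.5 CPM), and the part of these cell types was not tested.

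Of the Meckel syndrome module, Mks1, a B9 domain protein, had the narrowest range of the 8 members over the 6 libraries. It stood at 9.45, 9.69 and 7.76 CPM in controls 1 to 3 and 6.34, 9.48 and 8.81 CPM in shIft88 1 to 3. The groups overlapped, with shIft88 1 the lowest library, and the coefficient of variation over all 6 was 15.2%. With library totals alone shIft88 3 was the lowest for Mks1, at 5.26 CPM. Cc2d2a, a coiled-coil and C2 domain protein of the same module, stood at 25.7, 44.9 and 42.1 CPM in controls 1 to 3 and 29.3, 30.6 and 45.2 CPM in shIft88 1 to 3. Control 1 was the lowest library and shIft88 3 the highest with TMM factors. With library totals alone shIft88 3 was the lowest for Cc2d2a, at 27.0 CPM, and control 3 the highest, at 52.1 CPM. The log2 fold changes were -0.13 for Mks1 and -0.10 for Cc2d2a, with intervals of 52.9% to 158% and 56.6% to 154% of the control level.

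The tectonic proteins are a family, secreted or membrane-bound, that act with the Meckel syndrome module. Tctn1 stood at 7.27, 7.74 and 4.40 CPM in controls 1 to 3 and 4.33, 11.4 and 7.87 CPM in shIft88 1 to 3. Tctn2 was at 10.02, 10.2 and 5.07 CPM and at 6.82, 13.7 and 9.49 CPM. For both, with TMM factors, shIft88 2 was the highest library, and control 3 and shIft88 1 were the lowest. Tctn3 stood at 8.63, 10.7 and 5.64 CPM in controls 1 to 3 and 8.66, 8.64 and 7.43 CPM in shIft88 1 to 3. It followed the order of Nphp4 in place of that of the other tectonic genes. Control 3, the library with the highest neuron markers, was the lowest for Rpgrip1l, Nphp4, Tctn2 and Tctn3 with TMM factors. With library totals alone shIft88 3, which had the lowest neuron markers, was the lowest for these genes. It was then at 17.98, 4.03, 5.67 and 4.44 CPM, against 24.8, 5.96, 6.27 and 6.97 CPM in control 3. Neurons did not set control 3 apart alone: its summed markers were also the highest for astrocytes (701 CPM), oligodendrocytes (252 CPM) and proliferation (1670 CPM). They were the lowest for fibroblasts and mural cells (662 CPM), endothelium (60.4 CPM) and choroid plexus (32.0 CPM). The part of any of these cell types in this was not tested. Tctn1 and Tctn2 varied most of the members, with coefficients of variation of 36.7% and 32.5% over the 6 libraries against 20.2% for Tctn3. The fold changes were 0.28, 0.25 and -0.013 (log2) for Tctn1, Tctn2 and Tctn3, and the intervals ran from 56.3% to 263%, from 58.7% to 239% and from 54.5% to 180% of the control level. In a later annotation Tctn1 shares 19% of its exon bases with Hvcn1 on the opposite strand, and it shares some with the gene model Gm15481 there. Cep290 shares 7.58% with the gene model 4930430F08Rik on the opposite strand. Whether strand was used in counting is not given in the sources used here, so these counts are less certain than those of the other members.

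**Figure D2:**
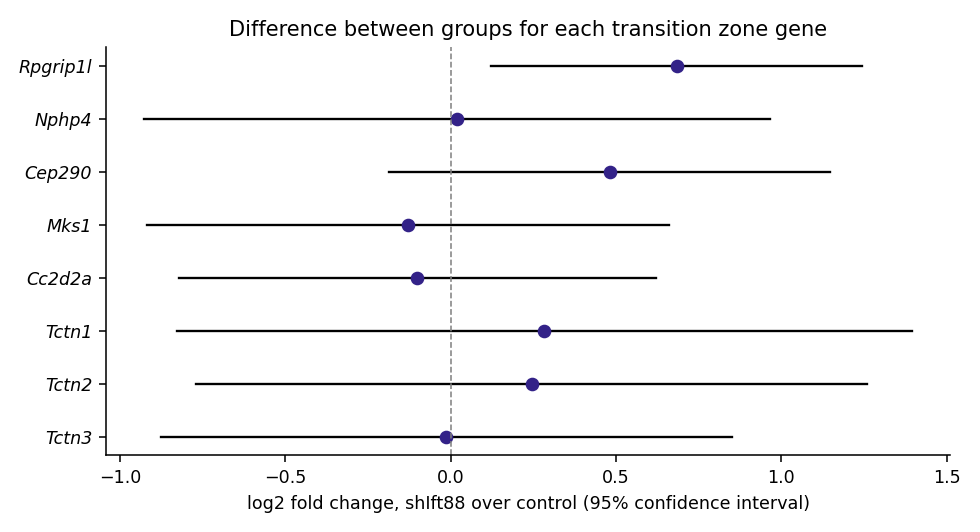
Log2 fold change of the shIft88-labelled libraries over the controls for each transition zone gene (point) with its 95% confidence interval (line), from edgeR with 3 libraries a group and before adjustment for the number of genes. The interval of Rpgrip1l lies above 0, and those of the other 7 include 0.

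Per length of transcript, Cc2d2a was the most abundant of the 8 and Tctn1 the least. The level per kilobase, averaged over the 6 libraries, was 6.62 CPM per kb for Cc2d2a, 4.12 for Rpgrip1l, 3.47 for Cep290, 3.44 for Mks1, 3.38 for Tctn2, 3.02 for Tctn3, 1.56 for Nphp4 and 1.25 for Tctn1. In the controls Cc2d2a was at 6.85 ± 1.90 CPM per kb and Rpgrip1l at 3.16 ± 0.319, with no overlap (lowest Cc2d2a 4.68, highest Rpgrip1l 3.50). In the shIft88-labelled libraries the levels of these genes overlapped, at 6.39 ± 1.61 and 5.07 ± 0.932. Cep290, Mks1, Tctn2 and Tctn3, at 2.89 ± 0.761, 3.59 ± 0.420, 3.09 ± 1.07 and 3.03 ± 0.928 CPM per kb in the controls, did not differ beyond their spread. The order in the middle depends on the length used: over the union of all annotated exons, which more than doubles the length of Rpgrip1l and of Tctn2, Cc2d2a was still first (5.33 CPM per kb) and Tctn1 last (0.865), but Tctn3 (2.53) stood above Rpgrip1l (1.96) and Tctn2 (1.11).

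The members did not vary as one block across the 6 libraries. Of the 28 pairs, 18 had a Pearson correlation above 0 on log2(CPM + 1) and 10 below 0, with a median r of 0.26 and a range from -0.43 (Rpgrip1l and Cc2d2a) to 0.99 (Nphp4 and Tctn3). Values in a library share its scaling, and by library totals alone the median was 0.55. Nphp4 and Tctn3 kept the same order in all 6 libraries (r = 0.99, exact permutation p = 0.00139, the smallest that 720 orders can give here, 0.0389 adjusted over 28 pairs; Spearman's rho = 1, exact permutation p = 0.00278, 0.0778 adjusted). The identical order rests in part on near-equal values: Tctn3 was at 8.63, 8.66 and 8.64 CPM in control 1, shIft88 1 and shIft88 2. Without the 2 libraries farthest from the median of Nphp4, control 2 and control 3, r was 0.91, and for deviations from the group means it was 0.99. Their counts, whose ratio needs no scaling, stood at 0.916, 0.997 and 0.855 Nphp4 counts per Tctn3 count in the controls and 1.02, 0.938 and 0.908 in the shIft88-labelled libraries. The genes lie on chromosomes 4 and 19 and share no annotated exon.

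Tctn1 and Tctn2, both on chromosome 5, were the next pair (r = 0.95, exact permutation p = 0.0139, 0.195 adjusted over 28 pairs; rho = 0.77, exact permutation p = 0.103, 0.838 adjusted). Their r was 0.96 without the 2 libraries farthest from the median of Tctn1, and the ratio of their counts ran from 0.635 in shIft88 1 to 0.868 in control 3. Mks1 was the member next most like Tctn1 (r = 0.83, exact permutation p = 0.0486, 0.454 adjusted; rho = 0.71, exact permutation p = 0.136, 0.838 adjusted). Without the 2 libraries farthest from the median of Tctn1, r between Mks1 and Tctn1 was 0.14. With 1 library left out in turn it was 0.80 to 0.88, and for deviations from the group means 0.98. Within the 3 libraries with and the 3 without olfactory receptor reads, too few remain for a correlation. Cc2d2a and Cep290 stood apart from the tectonic genes and Nphp4, with r from -0.34 to 0.14 for the 8 such pairs, or 0.034 to 0.35 with library totals alone.

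**Figure D3:**
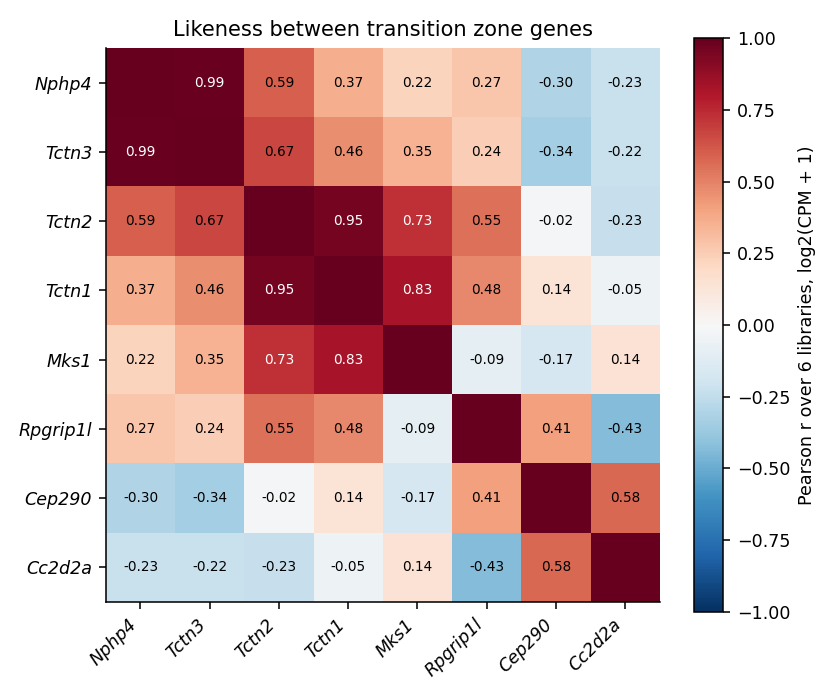
Pearson correlation between each pair of transition zone genes over the 6 libraries on log2(CPM + 1), from blue (negative) to red (positive). Nphp4 with Tctn3 (0.99) and Tctn1 with Tctn2 (0.95) are the closest pairs, and the values of Cc2d2a and Cep290 with these 4 genes lie between -0.34 and 0.14.

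Ratios of counts within a library do not depend on its scaling. Of the 28 ratios between members, 4 did not overlap between the groups, 14.3%, against 10.5% of the 134136 ratios of any tested gene to a member. The 4 were named after their values were seen. Rpgrip1l had 2.59, 2.26 and 2.58 counts per count of Mks1 in the controls and 5.33, 4.52 and 3.42 in the shIft88-labelled libraries, and 2.84, 2.05 and 3.56 against 3.90, 4.96 and 4.05 per count of Tctn3. Cc2d2a had 1.51, 1.80 and 1.44 counts per count of Cep290 in the controls and 1.06, 0.935 and 1.16 in the shIft88-labelled libraries. The ratio of Mks1 to Tctn2 was lower in the shIft88-labelled libraries, with a gap between 0.943 in control 1 and 0.929 in shIft88 1. As a share of the summed counts of the 8 genes, Rpgrip1l made up 22.2%, 15.6% and 16.8% for controls 1 to 3, but 26.9%, 27.2% and 19.4% for shIft88 1 to 3, so that by this measure control 1 lay above shIft88 3. By the same measure the groups did not overlap for Mks1 alone. Its share was 8.555%, 6.89% and 6.51% for controls 1 to 3 and 5.04%, 6.02% and 5.69% for shIft88 1 to 3. No such measure was taken over all genes, and the difference was not tested.

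For 3 members another gene starts within 1000 bases on the opposite strand, by a later annotation used for neighbours only: Fto beside Rpgrip1l, Tmtc3 beside Cep290 and Entpd1 beside Tctn3. Fto, an RNA demethylase gene whose start lies 263 bases from that of Rpgrip1l, stood at 58.7, 52.2 and 56.8 CPM in controls 1 to 3 and 74.9, 83.0 and 65.1 CPM in shIft88 1 to 3. With TMM factors the groups did not overlap for Fto either, and it did not pass (0.41 on the log2 scale, SE 0.21, edgeR, adjusted p = 0.9995). With library totals alone its log2 fold change was 0.13. Rpgrip1l had 0.417, 0.42 and 0.353 counts per count of Fto in the controls and 0.451, 0.516 and 0.462 in the shIft88-labelled libraries. This ratio did not overlap, as was so for 10.5% of the ratios of any tested gene to a member. Over the 6 libraries Fto and Rpgrip1l had r = 0.96 (exact permutation p = 0.00417, 0.0125 adjusted over 3 neighbours) and rho = 0.94 (exact permutation p = 0.0167, 0.0501 adjusted). The r was 0.99 without the 2 libraries farthest from the median of Rpgrip1l, and 0.83 for deviations from the group means. Tmtc3 was at 44.6 ± 9.20 CPM in the controls and 48.7 ± 12.8 CPM in the shIft88-labelled libraries, with r = 0.73 to Cep290 (exact permutation p = 0.0903, 0.133 adjusted; rho = 0.77, exact permutation p = 0.103, 0.154 adjusted). Entpd1 was at 5.90 ± 1.37 and 5.61 ± 0.338 CPM, with r = -0.70 to Tctn3 (exact permutation p = 0.133, 0.133 adjusted; rho = -0.086, exact permutation p = 0.919, 0.919 adjusted). Without the 2 libraries farthest from the median of the member, r was 0.52 for Tmtc3 and 0.22 for Entpd1. For deviations from the group means r was 0.82 for Tmtc3, near that of Fto, and -0.70 for Entpd1.

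**Figure D4:**
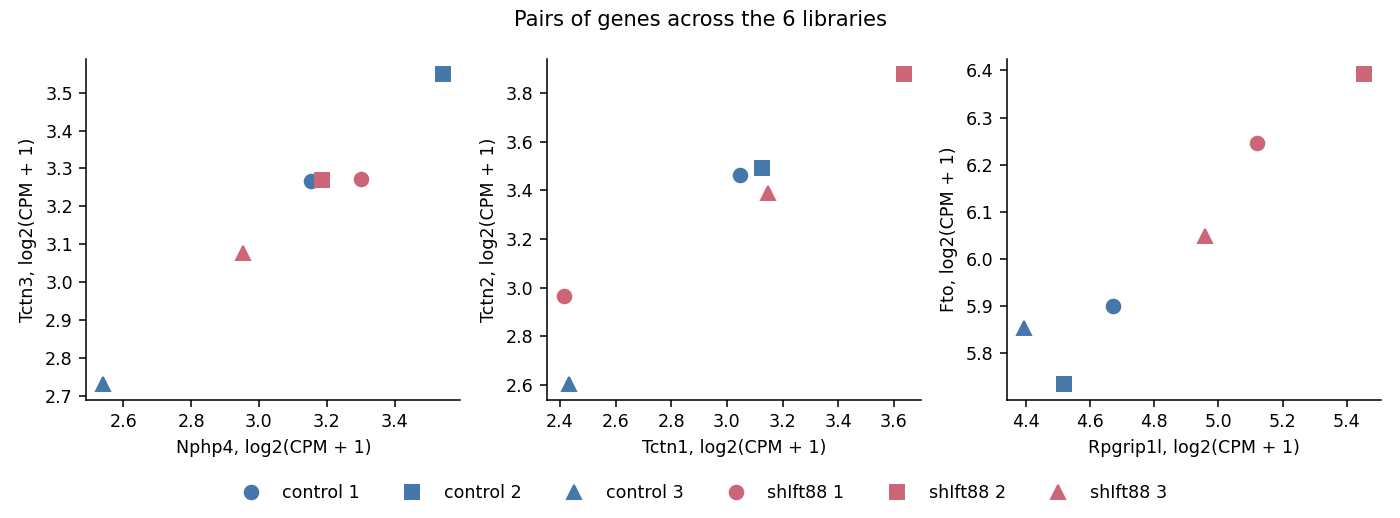
Level of 3 pairs of genes in each of the 6 libraries on log2(CPM + 1), with blue for controls, red for libraries labelled shIft88 and 1 marker shape for each replicate number, which pairs no samples. Nphp4 with Tctn3 and Tctn1 with Tctn2 spread along a line on which the groups mix. For Rpgrip1l with Fto, with the TMM scaling used, the 3 libraries labelled shIft88 lie above the 3 controls on both axes.

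The other genes of the transition zone and of its base were read from 3 lists, with a called member in none of them (edgeR, adjusted p of 0.05; 0 members of these lists had an unadjusted p under 0.05, and DESeq2 called 0). Of 11 other Meckel syndrome module genes, 10 had a fitted value above 0 and 1, Tmem17, below, with a median log2 fold change of 0.067. Among all genes tested, 8165 of 16768 were above 0. Scaling without TMM factors moved the median over all tested genes from -0.012 to -0.33, a shift larger than 0.067. The count of 10 was not repeated with that scaling, and its difference from the all-gene share was not tested. The 2 genes of this list with the smallest p were Tmem80 and Ahi1. Tmem80, a tetraspan membrane protein, was at 11.5 ± 2.11 CPM in the controls and 16.7 ± 5.14 CPM in the shIft88-labelled libraries. Ahi1, which encodes jouberin, was at 18.2 ± 8.31 and 25.7 ± 3.45 CPM. In Ahi1 control 1 stood at 8.63 CPM and the other 5 libraries between 22.08 and 28.9 CPM. Of 9 other genes of the nephronophthisis and inversin modules, 4 were above 0 and 5 below (median -0.029). Iqcb1, a partner of Cep290, was at 9.79 ± 3.00 and 12.6 ± 6.26 CPM, and the GTPase regulator Rpgr at 7.61 ± 0.678 and 6.21 ± 2.32 CPM.

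Of 15 genes of the basal body and its distal appendages, 7 were above 0 and 8 below (median -0.031). Their 2 genes of smallest p went in opposite directions, both without overlap between the groups. Cby1, which encodes Chibby, a basal body protein and inhibitor of beta-catenin, stood at 23.8, 30.2 and 21.3 CPM in controls 1 to 3 and 31.2, 38.1 and 42.6 CPM in shIft88 1 to 3 (0.57 on the log2 scale, SE 0.25, edgeR, adjusted p = 0.9995). Dzip1l, a zinc-finger protein, was at 24.3, 24.6 and 36.2 CPM and at 22.4, 17.2 and 18.4 CPM (-0.55, SE 0.27, edgeR, adjusted p = 0.9995). With 2 of 15 genes not overlapping, the list stood beside 8.39% of all genes tested. For comparison with other parts of the cilium, 0 of 17 core genes of intraflagellar transport complex B and 0 of 8 genes of the BBSome, a coat complex for membrane proteins, were called by edgeR, and 0 of either had an unadjusted p under 0.05; DESeq2 results were taken for the transition zone lists alone. Their medians were 0.074 and 0.034, and no difference between these lists was tested.

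**Figure D5:**
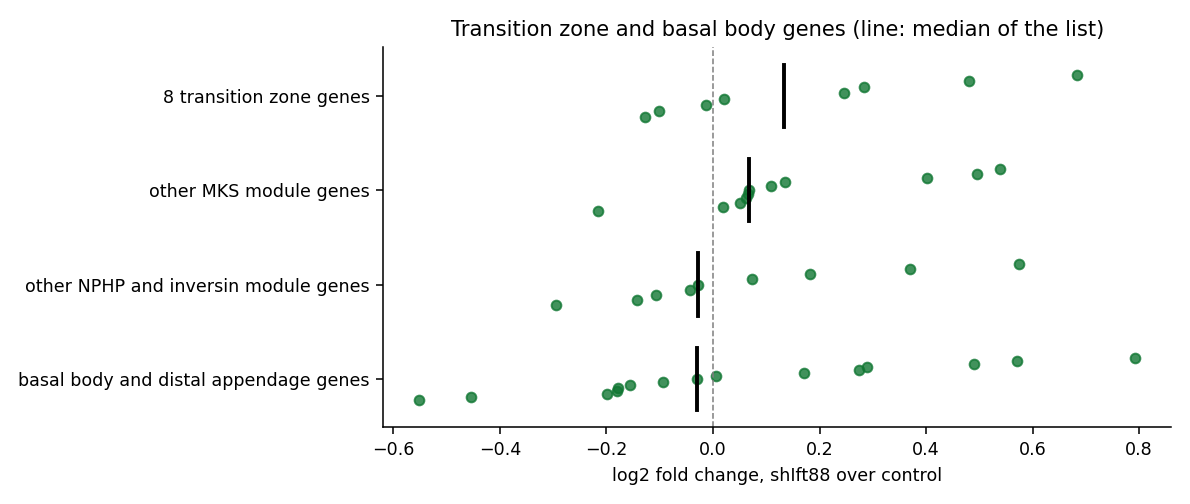
Log2 fold change of the shIft88-labelled libraries over the controls for each gene (points, spread vertically only for view) of the 8 transition zone genes and of 3 related lists, with a vertical line at the median of each list. The medians lie between -0.031 and 0.13, and each list has genes on both sides of 0.

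The 5 genes whose pattern was most like the mean standardised level of the 8 members, among 11723 other genes with a mean of at least 5 CPM, were Pik3cb (r = 0.99), Sox9 (0.99), Atp9b (0.98), Ing4 (0.98) and Fgd4 (0.98), by Pearson correlation over 6 libraries as a description of these libraries alone. The ranking of these genes used TMM factors alone. With those factors, the members' mean standardised level was above 0 in the 3 libraries with olfactory receptor reads (0.486 in control 2, 0.673 in shIft88 2 and 0.301 in shIft88 3). It was below 0 in the 3 without (-0.235 in control 1, -0.857 in control 3 and -0.368 in shIft88 1). That split depended on the scaling. As a share of all gene counts, the members were lowest in shIft88 3, at 0.00925%, against 0.0118% in control 1, 0.0147% in control 3 and 0.0132% in shIft88 1. The part of what sets the libraries with such reads apart was not tested. Sox9, a transcription factor of glia and neural progenitors, stood at 29.4, 107 and 12.1 CPM in controls 1 to 3 and 31.07, 100.3 and 66.2 CPM in shIft88 1 to 3. It was higher in each of the 3 libraries with olfactory receptor reads than in the other 3. Since Sox9 was picked for its likeness to the members' mean, that split is no separate observation. None of the 5 passed between the groups (edgeR, adjusted p = 0.9995 for each; 0 of the 5 had an unadjusted p under 0.05, and DESeq2 called none).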

How the data were processed

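Total RNA was turned into stranded libraries, per the labels' protocols. The submitters' processing notes list BWA and mm9; for the counting program, annotation and strand setting, nothing is given in the sources used here. Each deposited table holds the authors' raw read counts for 34591 gene rows of 1 library. A further 5 tally rows entered no library size or test, and the share of tallied reads without a feature was 18.8% to 39.5%.

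The test was edgeR 4.0.16 under R 4.3.3: filterByExpr left 16768 genes, TMM factors scaled the libraries, and glmQLFit (robust=TRUE) and glmQLFTest compared 3 libraries labelled shIft88 with 3 controls, two-sided, with Benjamini-Hochberg adjustment over all genes tested. The script was tested on simulated data. CPM values use TMM-scaled library sizes. Levels per kb use the principal protein-coding transcript of GENCODE M21 or, for Tctn2, which has none there, its longest basic transcript; that annotation belongs to a later build and gave lengths, neighbours and names only. Exact permutation tests of r and rho, two-sided, enumerated all 720 orders of 6 libraries; their p-values were added after the data were seen. The alternatives used DESeq2 1.42.0 and limma 3.58.1 and are given in the closing section.

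The members and lists were chosen with earlier results of these data known. Named genes were the members, Ift88, the 2 genes of smallest p per related list, neighbours whose start lies within 1000 bases, and the 5 genes most like the members' mean; Tmem17 and the ratios were named after their values were seen. The motifs were chosen with the members' promoters in view.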

Additional observations from a re-analysis of the deposited data

How the results depend on the processing

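No member and no gene of the 3 related lists was called under any alternative run. Over all genes, 0 were called except with DESeq2 (58) and without a filter (6). No paired analysis was possible because the labels number no replicates: the numbers 1 to 3 used here follow accession order, only name libraries and match no control to an shIft88 library. Rpgrip1l and Cep290 stayed above 0 under all 17 alternatives, at 0.42 to 0.76 and 0.10 to 0.66 (log2). Direction changed with library totals alone for Nphp4 (-0.24), Tctn1 (-0.0013), Tctn2 (-0.024), Tmtc3 (-0.28), Pik3cb (-0.064), Atp9b (-0.078), Ing4 (-0.076) and Fgd4 (-0.033), where the median of all genes was -0.33. It changed with limma-voom for Tctn3 (0.075), without a filter for Nphp4 (-0.013), and with a term for olfactory receptor reads for Nphp4 (-0.027), Tctn1 (-0.060) and Fgd4 (-0.11). Within the 3 libraries with such reads it changed for Nphp4 (-0.53), Pik3cb (-0.063), Sox9 (-0.38) and Fgd4 (-0.049). Within the 3 without, it changed for Tctn1 (-0.46), Tctn2 (-0.17), Tctn3 (0.25), Ift88 (0.061), Tmtc3 (-0.36), Ing4 (-0.0033) and Fgd4 (-0.21). With libraries left out in turn, values ran from -0.24 to 0.31 for Nphp4 (below 0 without control 3 or shIft88 1), from -0.23 to 0.20 for Tctn3 (above 0 without control 1, control 2 or shIft88 3), from -0.088 to 0.56 for Tctn1 (below 0 without shIft88 2), from -0.053 to 0.44 for Tctn2 (below 0 without control 3 or shIft88 2), from -0.25 to 0.0094 for Mks1 (above 0 without shIft88 1) and from -0.36 to 0.042 for Cc2d2a (above 0 without control 2). They ran from -0.16 to 0.13 for Ift88, from -0.20 to 0.13 for Entpd1, from -0.13 to 0.30 for Tmtc3, from -0.059 to 1.66 for Sox9 and from -0.043 to 0.73 for Fgd4. The cause was not tested. The median r between members was 0.55 with library totals alone and ran from 0.11 (without control 3) to 0.42 (without shIft88 1). Without control 3 the groups also did not overlap for Cep290, and without shIft88 1 for Cep290 and Tctn1. The lowest count of a member was 108.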
